A study of Ovis aries with 20 samples.

Results

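The comparison described here set the pancreas of CFTR-/- (CF) fetal sheep against that of wild-type (WT) fetuses at 100 days of gestation, 2 libraries per genotype, gene by gene over the whole transcriptome. Its members are 4 of the 20 bulk RNA-seq libraries of the table, and 19522 of the 24478 genes in that table had enough counts to be tested. The libraries of the other 4 ages (65, 80 and 120 days and term) number 16. In the 100-day test they served only to estimate the spread within groups. They also showed where a value lies among the others, and their differences between CF and WT were tested separately. Both genotypes were American Romney sheep. The WT fetuses came from ordinary breeding, and their sex is not in the labels. All CF fetuses were cloned by somatic cell nuclear transfer from 1 line of male fetal fibroblasts in which exon 2 of CFTR had been targeted, so the loss of CFTR, cloning, the genome of that 1 line and its sex cannot be told apart in any difference between these groups. The tissue was taken from the centre of the gland and is labelled pancreas, although the text describing the series speaks of trachea. The 2 WT animals of 100 days carry labels with a common stem whose meaning is not given, and the label of CF replicate 2 is also carried by a WT animal of 65 days.

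CFTR is a chloride and bicarbonate channel of the apical membrane of ductal epithelium, and its secretion keeps the enzyme-rich juice of the exocrine pancreas fluid and alkaline. In cystic fibrosis the ducts become blocked, acinar tissue is lost and connective tissue takes its place, a process that starts before birth. The fetal gland holds acinar cells that make digestive enzymes, duct cells, hormone-producing islet cells and a mesenchyme of fibroblasts and stellate cells, the latter being retinoid-storing cells that make matrix when activated.

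Counts per gene summed to 62714829 and 61325786 in WT replicates 1 and 2, 63174816 in CF replicate 1 and 35973948 in CF replicate 2. Levels are given as counts per 1000000 after TMM normalization (CPM), on which 1 count was worth 0.0165 CPM in CF replicate 1 and 0.0215 CPM in CF replicate 2. The most abundant gene of both WT libraries and of CF replicate 1 was LOC101117443, a protein-coding locus without a symbol, with 23.4%, 18.5% and 17.1% of the counts. In CF replicate 2 it took 1.43%, and the 10 most abundant genes together took 8.94%, against 24.9 to 31.6% in the other 3 libraries. CF replicate 2 thus stood apart from the other 3 libraries of its age before any test.

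No gene passed the test between CF and WT at 100 days (0 of 19522, 0.00%, edgeR quasi-likelihood F-test) when called genes had to reach an adjusted p of 0.01 together with a 1.5-fold difference, 0.58 on the log2 scale. The lowest adjusted p of any gene was 0.199. Without adjustment, 319 genes (1.63%) were listed at p up to 0.01 and 1.5-fold, 181 higher in CF (0.927%) and 138 lower (0.707%), and 1968 genes (10.1%) had an unadjusted p under 0.05. DESeq2 called 34 genes, 17 in each direction, and edgeR's likelihood ratio test called 8. The genes named below as listed at an unadjusted p of 0.01 therefore did not pass the quasi-likelihood test after adjustment, and they are described by their values. DESeq2 called 19 of the 24 genes picked below by smallest unadjusted p. With 2 libraries per group, an exact permutation test of a single value cannot give a two-sided p below 0.333.

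The 2 CF libraries gave different pictures when each was set alone against the WT pair. Without CF replicate 2, no gene was called (0 of 20297, 0.00%, edgeR quasi-likelihood), 60 genes (0.296%) were listed at an unadjusted p of 0.01, and 347 genes (1.71%) had an unadjusted p under 0.05. Without CF replicate 1, so that the CF group was CF replicate 2 alone, 326 of 20350 genes (1.60%) were called, 37 higher (0.182%) and 289 lower (1.42%), and the lone library was assumed to vary as the other groups do. Of the 289 lower genes, CF replicate 1 lay below both WT libraries in 175, and of the 37 higher genes it lay above both in 33. CF replicate 2 had no count at all for 92 of the 326. The calls without CF replicate 1 used the same 2 WT libraries, so the counts of 175 and 33 are not independent of them. Over all tested genes, CF replicate 1 was above both WT libraries for 27.6% and below both for 27.4%. CF replicate 2 was above for 33.8% and below for 42.8%. Both CF libraries lay above both WT libraries for 3013 genes (15.4%) and below both for 3717 (19.0%).

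**Figure D1:**
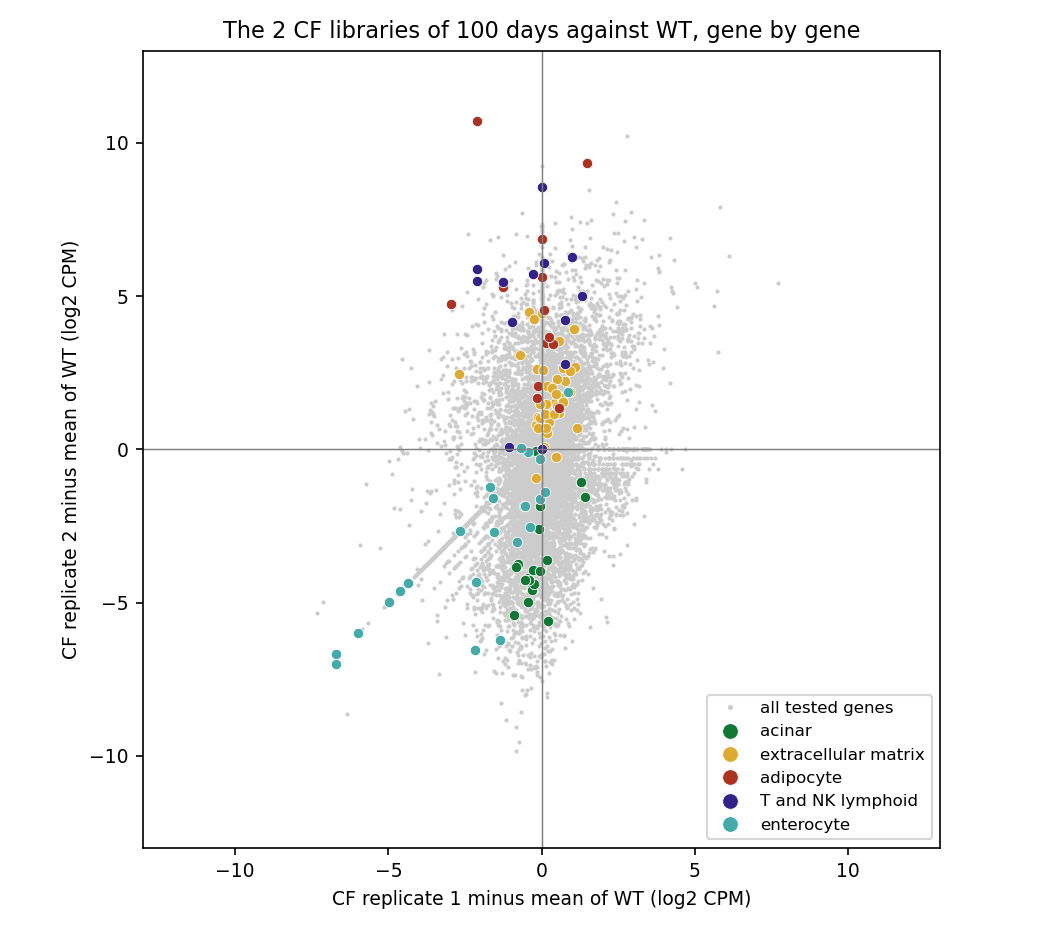
Each point is 1 of the 19522 tested genes, placed by the log2 CPM of CF replicate 1 (horizontal axis) and of CF replicate 2 (vertical axis) minus the mean of the 2 WT libraries of 100 days. Most acinar genes lie low and most adipocyte, T and NK and matrix genes lie high on the vertical axis, with smaller differences on the horizontal axis, and enterocyte genes trail to the lower left.

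The cloud in the plot of the CF libraries gene by gene is taller than it is wide. Its median was 0.00 for CF replicate 1 and -0.16 for CF replicate 2 on the log2 CPM scale, and the median log2 fold change of the fit with both was -0.06.

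The targeted gene itself, CFTR (chromosome 4, 50644000 to 50864925 in Oar_v4.0), had 20.4 and 27.8 CPM in WT and 19.8 and 24.6 CPM in CF. The 2 groups overlapped, with a log2 fold change of -0.12 ± 0.36 (SE) and an adjusted p of 0.93 (edgeR quasi-likelihood). A gene disrupted in exon 2 can still be transcribed, and counts over the whole gene do not check the edit.

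The acinar program was where the CF libraries parted most among pancreatic cell types. Summed over the 20 acinar genes found in the table, the level was 86851 and 61486 CPM in WT, 56603 CPM in CF replicate 1 and 4328 CPM in CF replicate 2. CF replicate 1 was thus 1.31-fold below the WT mean, and CF replicate 2 was 17.1-fold below it and lower than every library of the other ages, which ran from 10437 to 404044 CPM. All 20 genes lay below both WT libraries in CF replicate 2 and 11 did in CF replicate 1, where 42.8% and 27.4% of all tested genes did. PRSS2, a trypsinogen, had 6993 and 4708 CPM in WT, 3194 CPM in CF replicate 1 and 403.0 CPM in CF replicate 2 (log2 fold change -1.70 ± 0.75, adjusted p 0.491). CEL, the bile salt-dependent lipase of pancreatic juice, had 11998 and 11317 CPM in WT against 7918 and 602.1 CPM in CF (-1.45 ± 0.82, adjusted p 0.523), and the amylase gene AMY2B had 5824 and 3602 CPM against 2462 and 106.9 CPM (-1.88 ± 1.09, adjusted p 0.530). For these 3 genes both CF libraries lay below both WT libraries, with a wide gap between the CF libraries themselves. The elastase gene CELA3B differed from them in that CF replicate 1, at 4480 CPM, lay between the WT libraries at 7470 and 3778 CPM, and CF replicate 2 had 252.8 CPM (-1.25 ± 0.86, adjusted p 0.58). None of the 20 genes was listed at an unadjusted p of 0.01, and the median log2 fold change of the list was -1.22. Without CF replicate 1 it was -3.96 with 5 genes called lower, and without CF replicate 2 it was -0.33 with none called. In bulk tissue, fewer cells of a type and less RNA per cell cannot be told apart.

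Islet and duct genes showed the same contrast between the CF libraries on a smaller scale. The endocrine list summed to 10112 and 10683 CPM in WT, 10678 CPM in CF replicate 1 and 2030 CPM in CF replicate 2, so that CF replicate 1 lay between the WT libraries and CF replicate 2 was 5.12-fold below the WT mean. GCG, the glucagon gene of alpha cells, had 5326 and 6360 CPM in WT against 5504 and 607.4 CPM in CF. The calcium-binding protein SCGN had 203.9 and 193.7 CPM against 276.7 and 66.2 CPM (-0.21 ± 0.56, adjusted p 0.915), and ISL1, a transcription factor of islet cells, had 27.0 and 33.6 CPM against 35.0 and 9.12 CPM (-0.46 ± 0.70, adjusted p 0.826). For both, the 2 CF libraries lay on opposite sides of the WT pair. Of the 30 tested endocrine genes, 26 lay below both WT libraries in CF replicate 2, where 42.8% of all tested genes did. In CF replicate 1, 4 lay below both and 14 above both, against 27.4% and 27.6% of all tested genes. The list median was -0.52, and it was 0.21 without CF replicate 2 and -1.72 without CF replicate 1.

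The duct list summed to 2688 and 1984 CPM in WT, 2228 CPM in CF replicate 1 and 1327 CPM in CF replicate 2, the last of which was below the range of the other ages (1415 to 3112 CPM). The keratin KRT19, a general marker of duct epithelium, did not follow the list, with 144.2 and 66.3 CPM in WT against 127.9 and 112.0 CPM in CF (0.19 ± 0.50, adjusted p 0.915). ELF5, an epithelial transcription factor, had 25.5 and 21.6 CPM in WT, 23.9 CPM in CF replicate 1 and 5.55 CPM in CF replicate 2 (-0.68 ± 0.49, adjusted p 0.597). SCTR, the receptor for secretin, which triggers bicarbonate secretion by duct cells, ran the other way. It had 54.5 and 33.2 CPM in WT and 84.1 and 129.4 CPM in CF, both CF libraries above both WT libraries (1.28 ± 0.49, adjusted p 0.491).

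The summed level of connective tissue genes was higher in both CF libraries than in WT, slightly in CF replicate 1 and several-fold in CF replicate 2, although no single gene passed the test. The stromal list summed to 4965 and 5013 CPM in WT, 6672 CPM in CF replicate 1 (1.34-fold over the WT mean) and 15960 CPM in CF replicate 2 (3.20-fold). Of its 27 tested genes, 26 had a positive log2 fold change, where 44.8% of all tested genes did, and both CF libraries lay above both WT libraries in 18, where 15.4% of all tested genes did. In 2 of the 27, CF replicate 1 lay below both WT libraries, where it did in 27.4% of all tested genes. The list median was 1.18, and it was 1.76 without CF replicate 1 and 0.34 without CF replicate 2. VCAN, the matrix proteoglycan versican, had 13.4 and 13.1 CPM in WT and 22.5 and 91.8 CPM in CF (2.11 ± 0.50, adjusted p 0.491). POSTN, the matrix protein periostin made by activated fibroblasts, had 184.9 and 145.1 CPM against 290.3 and 769.3 CPM (1.68 ± 0.54, adjusted p 0.491), and CCDC80, a secreted matrix protein, had 46.2 and 44.7 CPM against 72.6 and 171.8 CPM (1.43 ± 0.40, adjusted p 0.491). In each of these 3 genes the groups did not overlap, and CF replicate 1 lay closer to WT than to CF replicate 2.

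Fibrillar collagens, DCN and SPARC had the same order, and the stellate list followed it in part. COL3A1 had 1820 and 1776 CPM in WT, 2392 CPM in CF replicate 1 and 6251.5 CPM in CF replicate 2 (1.27 ± 0.51, adjusted p 0.491). COL1A1 had 674.8 and 947.5 CPM against 1092 and 1929 CPM (0.90 ± 0.50, adjusted p 0.522), and the collagen-binding proteoglycan DCN had 257.4 and 201.0 CPM against 289.7 and 666.1 CPM (1.06 ± 0.47, adjusted p 0.491). SPARC, which binds collagen and is made by stellate cells, had 643.1 and 624.8 CPM against 786.9 and 2235 CPM (1.25 ± 0.52, adjusted p 0.491). All 4 were higher in both CF libraries than in both WT libraries. ACTA2, the smooth muscle actin that marks activated stellate cells and vessel walls, had 42.5 and 33.6 CPM in WT and 48.0 CPM in CF replicate 1 but 284.2 CPM in CF replicate 2 (2.13 ± 0.85, adjusted p 0.491). The stellate and myofibroblast list as a whole summed to 1937 and 1596 CPM in WT, 2229 CPM in CF replicate 1 and 6026 CPM in CF replicate 2, which was above every library of the other ages (637.5 to 5263 CPM). Both CF libraries lay above both WT libraries in 7 of its 18 genes, against 15.4% of all tested genes. CF replicate 1 lay below both WT libraries in 3, against 27.4%.

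A separate list of 39 genes for matrix proteins and their modifiers, none of which is in the stromal list, had a median log2 fold change of 1.25. Of these genes, 36 were positive, against 44.8% of all tested genes. In 19, both CF libraries lay above both WT libraries, against 15.4% of all tested genes. CF replicate 1 lay below both WT libraries in 5 of the 39, against 27.4% of all tested genes. The list held 10 of the genes listed at an unadjusted p of 0.01, all higher in CF, as 0.927% of all tested genes were. The smallest p of the list belonged to the fibrillar collagen COL5A3, with 18.1 and 19 CPM in WT and 29.3 and 59.1 CPM in CF (1.25 ± 0.31, adjusted p 0.491). Summed, these genes stood at 1167 and 1410 CPM in WT, 1567 CPM in CF replicate 1 and 4867 CPM in CF replicate 2. Without CF replicate 2 the median was 0.23 and 25 of 39 were positive, where 43.5% of all genes were. Over the other 4 ages the mean difference between CF and WT had a median of 0.29 with 33 of 39 positive, where 41.6% of all tested genes were positive and their median was -0.08.

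The summed levels of adipose, lymphoid and myeloid genes separated CF replicate 2 from the other 3 libraries. The adipocyte list summed to 16 and 16.2 CPM in WT and 16.3 CPM in CF replicate 1, and to 483.6 CPM in CF replicate 2, 30.0-fold over the WT mean. ADIPOQ, the fat cell hormone adiponectin, had 2 and 15 counts in WT, 0 in CF replicate 1 and 10977 in CF replicate 2 (236.1 CPM). The fat cell fatty acid carrier FABP4 had 0.0639 and 0.215 CPM in WT, 0.396 CPM in CF replicate 1 and 99.9 CPM in CF replicate 2 (8.40 ± 2.20, adjusted p 0.491). All 13 adipocyte genes were above both WT libraries in CF replicate 2 and 2 were in CF replicate 1, where 33.8% and 27.6% of all tested genes were.

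The T and NK cell list summed to 17.6 and 22.6 CPM in WT, 21.3 CPM in CF replicate 1 and 300.4 CPM in CF replicate 2, above every other library of the series (16.6 to 239.8 CPM at the other ages). CD3E, a chain of the T cell receptor complex, had 1.30 and 0.829 CPM in WT, 1.09 CPM in CF replicate 1 and 72.9 CPM in CF replicate 2. LCK, the kinase of T cell signalling, was higher in both CF libraries, with 5.54 and 4.24 CPM in WT and 8.19 and 33.7 CPM in CF (2.10 ± 0.71, adjusted p 0.491), and the defining marker CD4 had no count in any of the 4 libraries. CCL19, the chemokine of lymphoid tissue stroma, had 0.511 and 0.0154 CPM in WT, 1.09 CPM in CF replicate 1 and 190.1 CPM in CF replicate 2. The whole lymph node and spleen stroma list stood at 29.1 to 39.9 CPM in the other 3 libraries and at 416.6 CPM in CF replicate 2. B lymphoid genes summed to 17.0, 19.5, 19.3 and 94.5 CPM in the same order, and myeloid genes to 109.8, 83.6, 95.2 and 489.1 CPM. Gene by gene, CF replicate 1 lay above both WT libraries in 7 of 14 B lymphoid and 8 of 18 myeloid genes, against 27.6% of all tested genes. It lay below both in 2 and 3, against 27.4%. WT replicate 2 of 120 days was the highest of the 16 libraries of the other ages on the adipocyte, B lymphoid, T and NK, myeloid and lymph node lists, at 508.9 CPM for the adipocyte and 433.0 CPM for the lymph node list. These sums moved with the acinar and matrix sums in CF replicate 2, and their part in those differences was not tested.

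**Figure D2:**
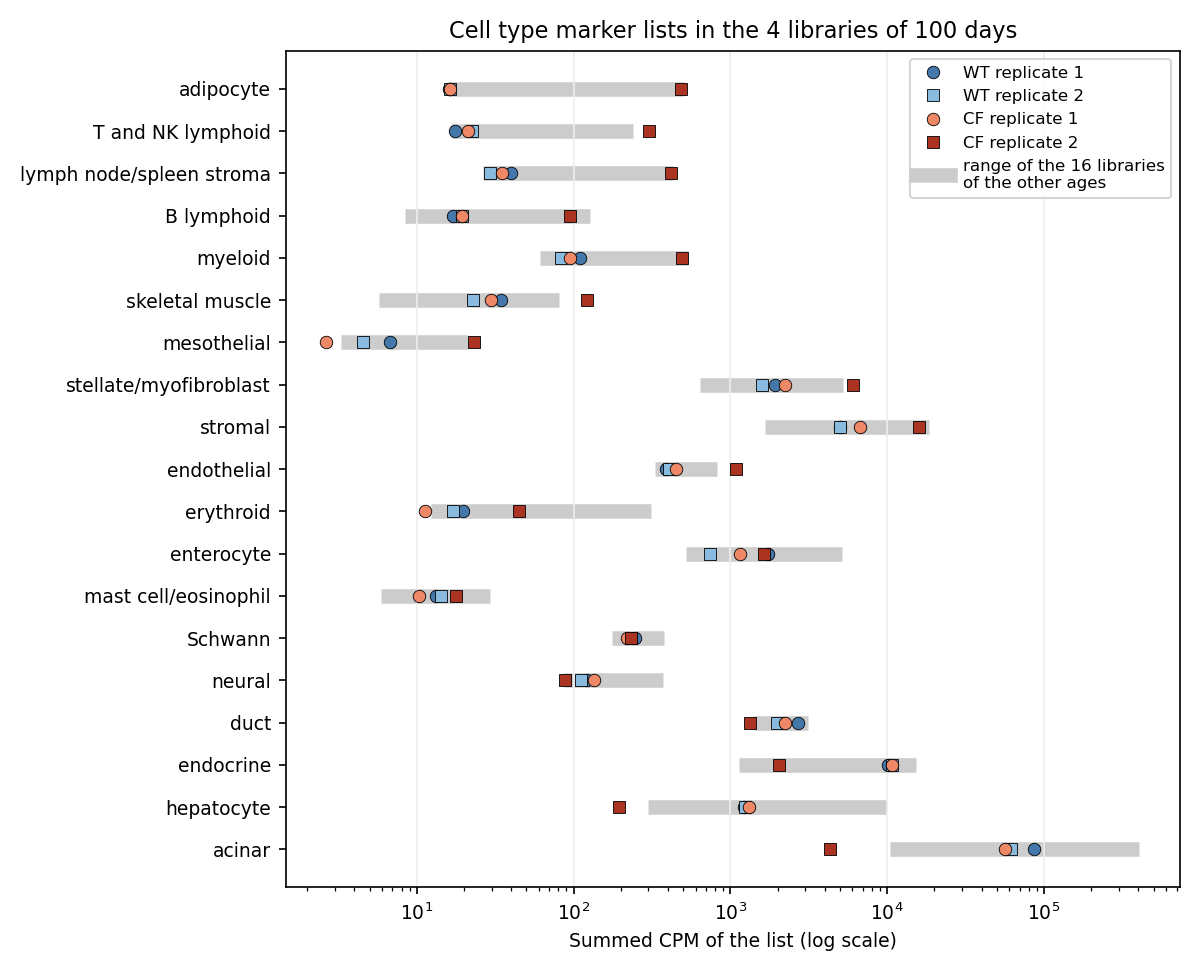
Summed CPM of each of the 19 cell type lists (log scale) in the 4 libraries of 100 days, with the range of the 16 libraries of the other ages as a grey bar and lists ordered by the ratio of CF replicate 2 to the WT mean. CF replicate 1 sits with the WT libraries on most rows, while CF replicate 2 lies to the right on the adipocyte to endothelial rows and to the left on the duct to acinar rows.

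Counted over all 19 cell type lists, the sum in CF replicate 1 was more than 1.5-fold from the WT mean in 2 and that in CF replicate 2 in 15. The 2 lists of CF replicate 1 were erythroid (11.3 CPM against 19.7 and 17.0 CPM) and mesothelial (2.65 CPM against 6.79 and 4.56 CPM), both at low levels. Endothelial genes summed to 387.6 and 407.5 CPM in WT, 452.1 CPM in CF replicate 1 and 1080 CPM in CF replicate 2, and both CF libraries lay above both WT libraries in 6 of 15, against 15.4% of all tested genes. Among them were the vessel guidance receptor ROBO4, with 22.6 and 21.2 CPM in WT and 36.0 and 77.5 CPM in CF (1.37 ± 0.35, adjusted p 0.491), and the junction protein PECAM1, with 51.8 and 49.5 CPM against 63.3 and 199.0 CPM (1.37 ± 0.43, adjusted p 0.491). Schwann cell genes summed to 219.3 to 244.7 CPM in all 4 libraries. Skeletal muscle genes summed to 22.9 to 34.5 CPM in the other 3 libraries and to 122.0 CPM in CF replicate 2. Neural genes summed to 88.1 to 134.8 CPM. Mast cell and eosinophil genes summed to 10.4 to 17.9 CPM, mostly from the growth factor receptor KIT (12.9 and 13.8 CPM in WT, 7.55 and 8.45 CPM in CF). Of the 7 tested genes of that list, 3 were listed as higher in CF at an unadjusted p of 0.01, where 0.927% of all tested genes were, and all 3 had no count in either WT library. FCER1A, a chain of the IgE receptor, had 16 and 23 counts in CF, GCSAML had 103 and 12, and the granule protease PRSS57 had 37 and 108.

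Liver and gut genes, which could enter with neighbouring tissue, were spread differently. The hepatocyte list summed to 1228, 1247 and 1314 CPM in WT replicates 1 and 2 and CF replicate 1 and to 195.9 CPM in CF replicate 2, led in all 4 by TTR, a thyroid hormone carrier that islets also make (775.7, 920.4, 979.0 and 101.7 CPM). The enterocyte list summed to 1748 and 737.6 CPM in WT and to 1154 and 1631 CPM in CF. These sums lay within the range of the other ages (521.6 to 5143.7 CPM). In single genes of this list it was a WT library that stood apart. FABP2, the fatty acid carrier of absorptive gut cells, had 132.6 CPM in WT replicate 1 and no count in the other 3 libraries. APOA4 and APOC3, apolipoproteins of gut and liver, had 102.8 and 128.2 CPM in WT replicate 1 and 0.338 CPM or less in each of the others. Of the 23 enterocyte genes in the table, WT replicate 1 was highest in 18, and 6 of the 22 tested were listed at an unadjusted p of 0.01, all lower in CF, where 0.707% of all tested genes were. The list median of -2.93 became -0.67 without WT replicate 1.

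Against this background, 24 genes were picked by the smallest unadjusted p among those in which both CF libraries lay outside both WT libraries, 12 in each direction. Among the 12 higher in CF, CF replicate 2 was farther from WT than CF replicate 1 in 11.

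**Figure D3:**
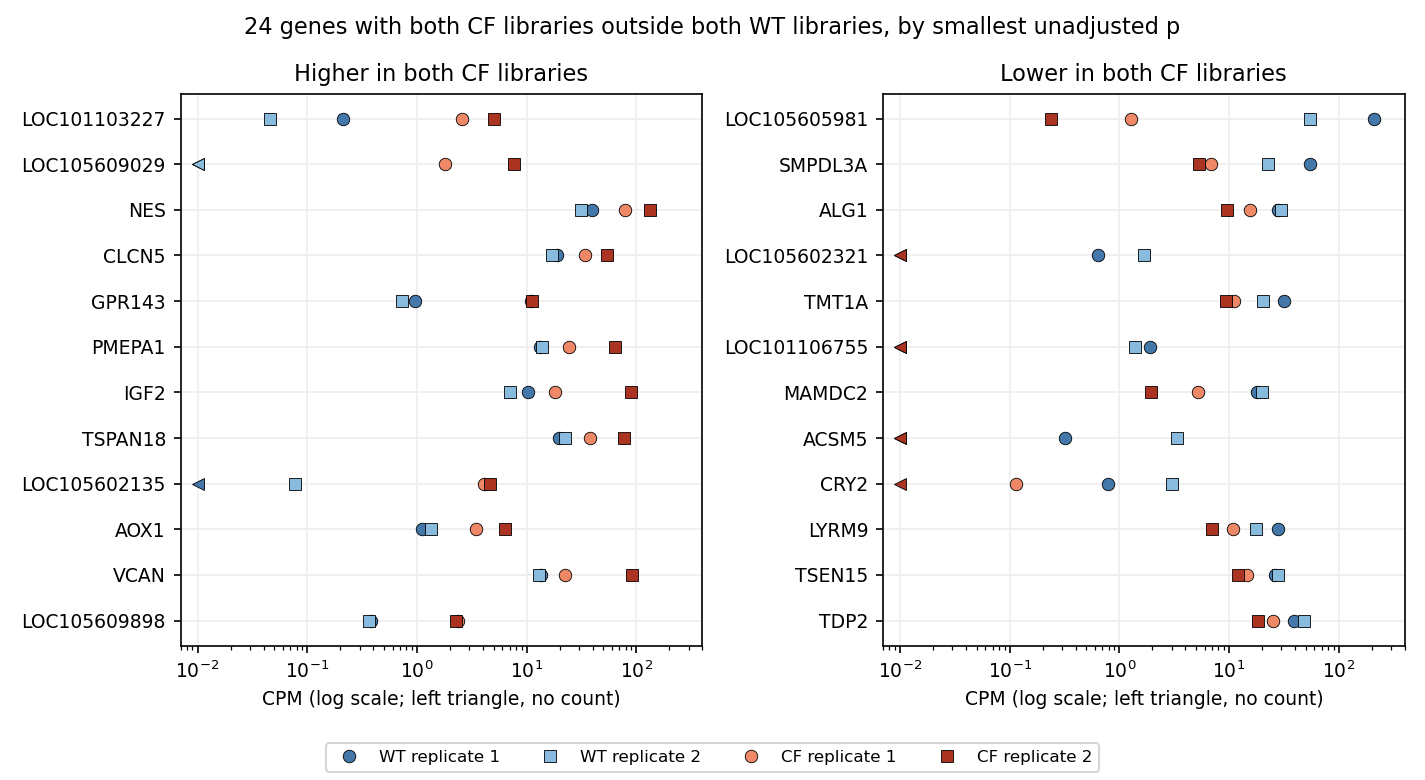
CPM (log scale) of the 24 genes in the 4 libraries of 100 days, with the 12 higher in both CF libraries on the left and the 12 lower on the right, ordered by unadjusted p. Left-pointing triangles mark libraries without a count, and in every row the orange and red CF symbols lie on 1 side of the blue WT symbols.

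NES, the intermediate filament nestin of progenitor, stellate and endothelial cells, had 39.8 and 31.3 CPM in WT and 78.1 and 133.2 CPM in CF (1.57 ± 0.32, adjusted p 0.491). CLCN5, an endosomal chloride and proton exchanger, had 18.9 and 16.9 CPM against 33.9 and 53.8 CPM (1.29 ± 0.28, adjusted p 0.491). PMEPA1, a membrane protein induced by TGF-beta, had 13.3 and 13.8 CPM against 24.2 and 63.4 CPM (1.69 ± 0.39, adjusted p 0.491). With CF replicate 1 as the only CF library, the log2 fold changes of NES, CLCN5 and PMEPA1 were 1.13, 0.92 and 0.84. IGF2, an imprinted fetal growth factor, had 10.4 and 7.08 CPM in WT and 18.0 and 89.2 CPM in CF (2.62 ± 0.62, adjusted p 0.491), and another imprinted gene, MEST, had 95.8 and 126.6 CPM against 210.5 and 182.5 CPM (0.82 ± 0.34, adjusted p 0.491). The list of 18 tested imprinted genes had a median of 0.16 (0.01 without CF replicate 2) and 5 members in which both CF libraries were above WT, where 15.4% of all tested genes were.

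Among the higher genes, GPR143, LOC105602135 and LOC105609898 differed from WT by nearly the same amount in both CF libraries. GPR143, a receptor of pigment organelles whose gene is on the X chromosome, had 0.958 and 0.737 CPM in WT and 11 and 11.2 CPM in CF (3.71 ± 0.85, adjusted p 0.491). LOC105602135 on chromosome 15 had 0 and 5 counts in WT and 250 and 216 counts in CF (4.12 and 4.65 CPM; 6.66 ± 1.59, adjusted p 0.491). LOC105609898 on chromosome 1 had 0.383 and 0.368 CPM in WT and 2.39 and 2.26 CPM in CF (2.62 ± 0.63, adjusted p 0.491). Neither locus has a symbol. The genes that follow lay farther from WT in CF replicate 2 than in CF replicate 1. The gene of smallest p, LOC101103227 (chromosome 3), had 10 and 3 counts in WT and 157 and 232 counts in CF, or 0.213, 0.0461, 2.59 and 4.99 CPM (4.89 ± 0.77, adjusted p 0.199). LOC105609029 on chromosome 13 had no count in WT and 109 and 358 counts in CF, a level at least 86.4-fold higher than 3 counts per WT library would give (adjusted p 0.243). AOX1, an aldehyde oxidase, had 1.11 and 1.35 CPM in WT and 3.49 and 6.32 CPM in CF (1.99 ± 0.48, adjusted p 0.491), and the membrane tetraspanin TSPAN18 had 19.9 and 22.6 CPM against 38.0 and 77.8 CPM (1.45 ± 0.34, adjusted p 0.491).

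Among the 12 genes lower in CF, CF replicate 2 was farther from WT in 9. LOC105605981, on an unplaced scaffold, had 209.9 and 54.2 CPM in WT and 1.29 and 0.237 CPM in CF (-7.40 ± 1.21, adjusted p 0.199). SMPDL3A, a nucleotide phosphodiesterase related to acid sphingomyelinase, had 54.9 and 22.6 CPM against 6.92 and 5.31 CPM (-2.66 ± 0.45, adjusted p 0.199). ALG1, a mannosyltransferase of N-glycan assembly in the endoplasmic reticulum, had 27.9 and 29.6 CPM against 15.5 and 9.64 CPM (-1.19 ± 0.23, adjusted p 0.474). For these the 2 CF libraries lay closer to each other than to either WT library. The list also held TMT1A, an enzyme that methylates thiols, with 31.5 and 20.3 CPM in WT and 11.1 and 9.36 CPM in CF, and LYRM9, a protein with a LYR motif, with 27.8 and 17.8 CPM against 10.9 and 6.97 CPM. TSEN15, a subunit of the tRNA splicing endonuclease, had 26.4 and 28.0 CPM in WT and 14.5 and 12.2 CPM in CF, and the DNA repair enzyme TDP2 had 38.9 and 47.9 CPM against 25.2 and 18.2 CPM. MAMDC2, a secreted matrix-associated protein, had 18.0 and 20.1 CPM in WT and 5.18 and 1.96 CPM in CF.

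No counts were seen in either CF library for 3 of the 12. LOC105602321 (chromosome 15, 54681138 to 54682950) had 30 and 109 counts in WT, at least 20.3-fold above the level of 3 counts per CF library (adjusted p 0.491). LOC101106755, on another unplaced scaffold, had 89 and 90 counts, at least 28.8-fold above it, and the mitochondrial acyl-CoA synthetase ACSM5 had 0.319 and 3.35 CPM, at least 32.2-fold above it. CRY2, a repressor of the circadian clock, had 0.788 and 3.01 CPM in WT, 0.115 CPM in CF replicate 1 and no count in CF replicate 2.

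Libraries of the other 4 ages, none of which entered the 100-day contrast, showed which of these differences recurred. Over those ages the mean difference between CF and WT passed the test (edgeR quasi-likelihood) for 5 genes (0.0256%), 2 higher (0.0102%) and 3 lower (0.0154%). At an unadjusted p of 0.01 and 1.5-fold, 592 genes (3.03%) were listed. The 3 lower genes were LOC105605981, ALG1 and LOC105602321, all named above. All 12 lower genes and 11 of the 12 higher genes had the same direction over the other ages, where 68.7% of all genes lower at 100 days and 54.2% of all genes higher did. Of the 24, 13 had there an unadjusted p of at most 0.01 together with a 1.5-fold difference. These 13 include LOC101103227, whose direction was reversed. LOC105602321 had no count in any of the 10 CF libraries and at least 30 counts in each of the 10 WT libraries, CF replicate 2 of 100 days included on the CF side. ALG1 had 11.6 to 19.7 CPM in the 8 CF libraries of the other ages and more, up to 42.6 CPM, in each of the 8 WT libraries, with a log2 fold change of -0.91 ± 0.11 (adjusted p 0.00512). LOC105605981 had 0.218 to 10.9 CPM in CF and 5.07 to 89.4 CPM in WT (-4.35 ± 0.53, adjusted p 0.005), and SMPDL3A had 4.70 to 8.62 CPM in CF and 5.34 to 35.2 CPM in WT (-1.32 ± 0.22, adjusted p 0.0154), which overlapped through WT replicate 1 of 65 days and both WT libraries of 80 days. The CF libraries of all ages share 1 donor line, so recurrence over ages is recurrence within that line.

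**Figure D4:**
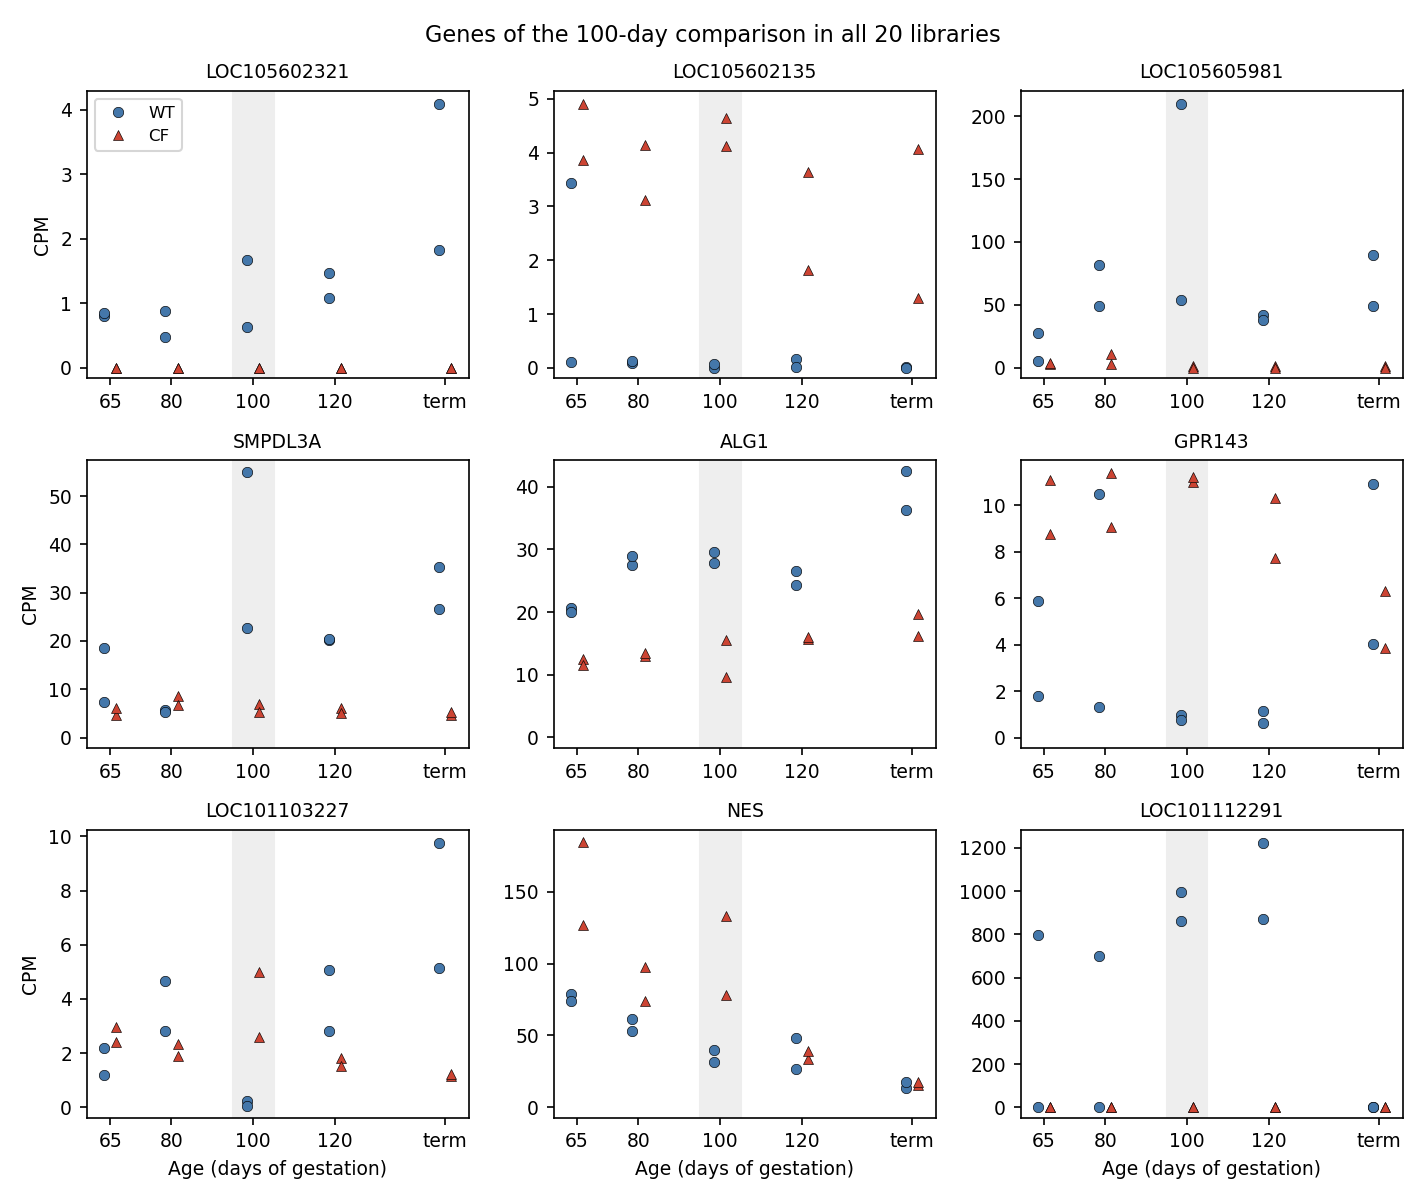
CPM of 9 genes of the 100-day comparison in all 20 libraries, by age (days of gestation), with WT as blue circles and CF as red triangles and 100 days shaded. LOC105602321, LOC105602135, LOC105605981 and ALG1 separate the genotypes at every age, LOC101103227 has its lowest WT values in the shaded column, and LOC101112291 is high in 6 of the WT libraries and near 0 elsewhere.

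LOC105602135 had 1.29 to 4.91 CPM in the 8 CF libraries of the other ages and 0 to 0.156 CPM in 7 of the 8 WT libraries, with 3.44 CPM in WT replicate 1 of 65 days. That exception is the animal whose label CF replicate 2 of 100 days shares. At LOC105602321, however, the 2 libraries were unlike, at 0.81 CPM in the WT library of 65 days and 0 in CF replicate 2. They were also unlike at LOC101112291, at 797.0 and 0 CPM, and at GPR143, at 1.8 and 11.2 CPM, in the same order.

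The gene of smallest p at 100 days was the exception in direction. LOC101103227 had 1.16 to 2.98 CPM in the CF libraries of the other ages and 1.20 to 9.75 CPM in the WT libraries, a log2 fold change of -1.01 ± 0.32 (adjusted p 0.215), and its 2 WT libraries of 100 days, at 0.213 and 0.0461 CPM, were below all 18 other libraries. NES and VCAN were closer to equal over the other ages, with 0.42 ± 0.16 for NES (adjusted p 0.293) and 0.23 ± 0.24 for VCAN (adjusted p 0.725). DCN was less so, with 0.75 ± 0.23. Of the 27 stromal genes, 25 were positive there with a median of 0.38, where 41.6% of all tested genes were positive. The highest NES level of the 20 libraries was 184.5 CPM, in CF replicate 1 of 65 days.

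The X-linked noncoding locus LOC101112291 (62537188 to 62573407) had the widest gap at 100 days, with 863.5 and 997.0 CPM in WT and no count in either CF library, at least 16324-fold lower than WT at 3 counts per CF library (adjusted p 0.491). Over the other ages it stood at 700.6 to 1221.5 CPM in 4 WT libraries, at 0.0722 CPM or less in the other 4, and at 1.45 CPM or less in CF. The 4 WT libraries that had it at those ages and the 2 of 100 days all had GPR143 at 0.609 to 1.80 CPM, against 4.02 to 10.9 CPM in the 4 WT libraries without it. Of 9 X-linked genes with a counterpart on the Y chromosome, 8 were lower in CF at 100 days, where 10514 of all 19522 tested genes were. The histone demethylase KDM6A had 23.8 and 30.5 CPM in WT and 13.4 and 13 CPM in CF (-1.04 ± 0.31, adjusted p 0.491), and the transcription factor ZFX had 27.3 and 30.7 CPM against 18.8 and 15.1 CPM (-0.77 ± 0.26, adjusted p 0.491). The part of sex in these differences was not tested, and GPR143 and CLCN5 are the 2 X-linked genes among the 12 higher ones.

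Pathway lists beyond the matrix showed whether the libraries shared a state of stress, growth or inflammation. Genes of the unfolded protein response, which handles the load of secretory protein in the endoplasmic reticulum, were lower in CF in 27 of 29, with a median of -0.64. Of all 19522 tested genes, 10514 were lower. Both CF libraries lay below both WT libraries in 15 of the 29, where 19.0% of all tested genes did. The chaperone cofactor DNAJB9 had 157.9 and 146.4 CPM in WT and 99.2 and 37.6 CPM in CF (-1.15 ± 0.38, adjusted p 0.491), and the transcription factor XBP1, which secretory cells need, had 1183.5 and 853.7 CPM against 737.8 and 220.7 CPM (-1.09 ± 0.48, adjusted p 0.491). The order of these libraries was that of the acinar sum. The median was -0.29 without CF replicate 2, with 3 of 29 higher, where 43.5% of all genes were.

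In the heat shock list the median gene of CF replicate 1 was farther from WT (-0.51 on the log2 CPM scale) than that of CF replicate 2 (-0.28). These chaperone genes summed to 5311 and 5954 CPM in WT and to 4081 and 3579 CPM in CF, 4 of 22 had a positive log2 fold change, where 44.8% of all tested genes did, and both CF libraries lay below both WT libraries in 13, where 19.0% of all tested genes did. The inducible chaperone HSPA6 had 55.3 and 32.2 CPM in WT and 8.67 and 8.95 CPM in CF (-2.31 ± 0.68, adjusted p 0.491), and its partner DNAJB1 had 182.2 and 201.0 CPM against 102.4 and 69.2 CPM (-1.16 ± 0.42, adjusted p 0.491). The list median was -0.37 with both CF libraries and -0.55 without CF replicate 2, and over the other ages it was -0.08, equal to that of all tested genes.

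**Figure D5:**
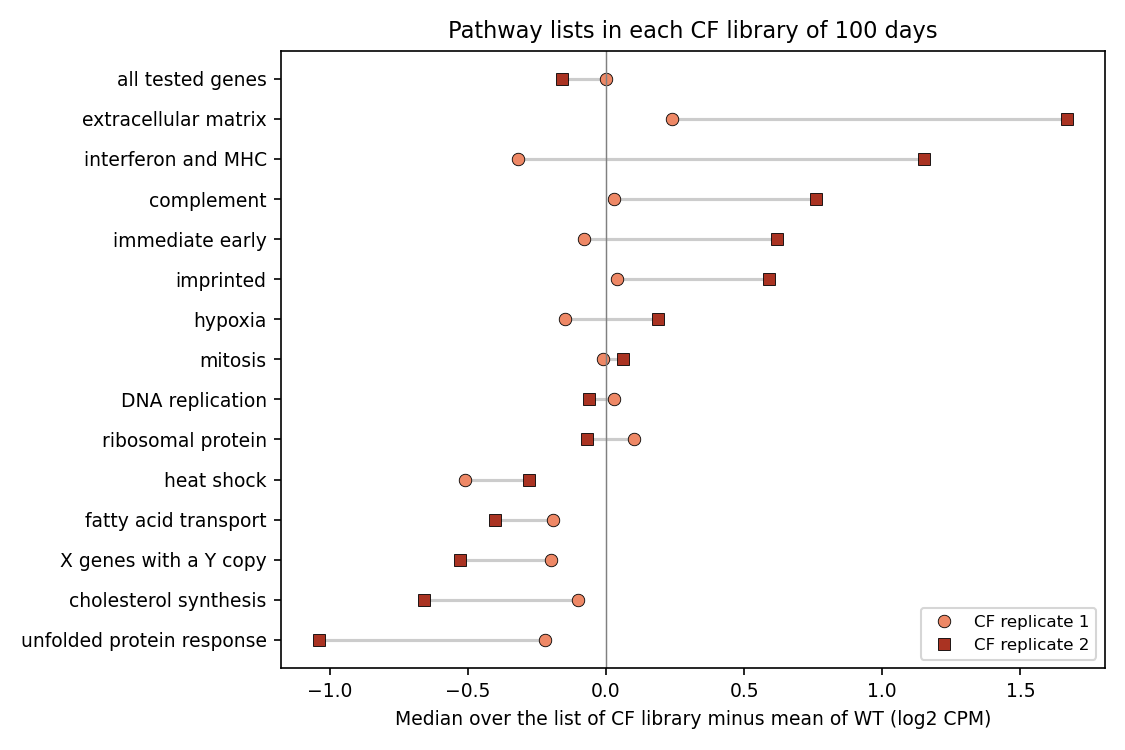
Median over each of the 14 pathway lists, and over all tested genes, of the log2 CPM of CF replicate 1 (orange) and of CF replicate 2 (red) minus the mean of the 2 WT libraries of 100 days. CF replicate 1 stays between -0.51 and 0.24 on every row, and CF replicate 2 reaches 1.67 for matrix genes and -1.04 for the unfolded protein response.

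Interferon and antigen presentation genes had medians of opposite sign in CF replicate 1 (-0.32) and CF replicate 2 (1.15) on the log2 CPM scale. They summed to 452.3 and 320.7 CPM in WT, 329.8 CPM in CF replicate 1 and 1549 CPM in CF replicate 2. Of 29 genes CF replicate 1 lay below both WT libraries in 15, against 27.4% of all tested genes. CF replicate 2 lay above both in 20, against 33.8%. The RNA sensor DDX58 was lower in both CF libraries, with 12.7 and 9.21 CPM in WT and 4.42 and 4.24 CPM in CF (-1.34 ± 0.39, adjusted p 0.491), and the lectin LGALS9 was higher in both, with 1.47 and 0.752 CPM against 2.98 and 6.73 CPM (2.13 ± 0.61, adjusted p 0.491). Complement genes summed to 563.0 and 538.2 CPM in WT and to 609.3 and 1202 CPM in CF, and the central complement protein C3 had 16.5 and 8.86 CPM in WT and 21.8 and 235.3 CPM in CF (3.34 ± 0.94, adjusted p 0.491). The lymphoid and myeloid sums given above were high in the same library, CF replicate 2, and their part in these values was not tested.

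Lipid genes had no common direction. Fatty acid transport genes were split, 10 higher and 10 lower, where 44.8% of all tested genes were higher. The list shares 3 genes with the adipocyte and 6 with the enterocyte list. The retinoic acid carrier CRABP2 was among the higher ones with 1.43 and 2.63 CPM in WT and 5.04 and 17.1 CPM in CF (2.45 ± 0.70, adjusted p 0.491). Cholesterol synthesis genes were lower in 15 of 21, where 10514 of all 19522 tested genes were. Their median was -0.35 for the group, and -0.10 in CF replicate 1 and -0.66 in CF replicate 2 on the log2 CPM scale.

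Lists of DNA replication, mitosis and ribosomal protein genes lay near the median of all genes at 100 days, which was -0.06. DNA replication genes had a median of -0.08 with 11 of 30 higher, mitosis genes 0.01 with 15 of 30 higher, and ribosomal protein genes -0.07 with 30 of 76 higher. Of all tested genes, 44.8% were higher. Ribosomal protein genes summed to 258229 and 137173 CPM in WT, which enclosed both CF libraries at 197791 and 174877 CPM, and the gene FAU, which encodes a ribosomal protein fused to a ubiquitin-like one, had 1706 and 770.2 CPM in WT against 1317 and 1514 CPM in CF (0.19 ± 0.55, adjusted p 0.922). Hypoxia genes had a median of 0.10 and immediate early genes 0.48, which were -0.16 and -0.11 without CF replicate 2. Medians of DNA replication, mitosis and ribosomal protein genes without CF replicate 2 were 0.02, -0.02 and 0.02. In the mean over the other ages all 76 ribosomal protein genes were higher in CF, with a median of 0.36. Of all tested genes, 41.6% were higher there. The sums were farthest apart at term, at 59255 and 105225 CPM in WT against 204559 and 310050 CPM in CF. At 65 days both CF sums, 121658 and 68574 CPM, lay below both WT sums, 136646.5 and 178713 CPM. At 80 and 120 days the groups overlapped. Against the mean of the other ages, the difference at 100 days had a median of -0.44 for this list, with 2 of 76 positive. The median of all tested genes was -0.009.

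Whether any difference was particular to 100 days was tested as the CF minus WT difference at that age against its mean over the other 4 ages. No gene passed (0 of 19522, 0.00%, edgeR quasi-likelihood), the lowest adjusted p was 0.0937 for LOC101103227, and 1214 genes (6.22%) had an unadjusted p under 0.05. DESeq2 called 14 genes, 10 of them with a higher difference at 100 days, against 1 by the likelihood ratio test. There were 188 genes (0.963%) at an unadjusted p of 0.01 and 1.5-fold, 134 of them higher at 100 days (0.686%). Without CF replicate 1 the test called 184 genes, and without CF replicate 2 it called 0, with 264 at an unadjusted p under 0.05. Taken list by list, acinar genes had a median of -1.19 for this contrast, adipocyte genes 3.95 and T and NK genes 5.63, against values over the other ages alone of 0.09, -0.54 and -1.14. Without CF replicate 2, the CF minus WT medians at 100 days itself were -0.33, 0.00 and 0.00 for these 3 lists, and without CF replicate 1 they were -3.96, 4.04 and 5.47.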

How the data were processed

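Poly(A) RNA of the fetal sheep pancreas was sequenced as paired reads from strand-specific libraries. Per the labels and methods, the authors aligned reads with STAR to Oar_v4.0 and counted them per gene with featureCounts (1.6.3 in the submitters' processing notes). The deposited values are raw counts per gene. Here CPM (TMM), log2 CPM (prior count 2) and edgeR 4.0.16 quasi-likelihood F-tests in R 4.3.3 were computed from the counts over 20 libraries and 10 groups, after filterByExpr (minimum count 10), with Benjamini-Hochberg adjustment. Genes were called at an adjusted p of 0.01 and a log2 fold change of 0.58. Alternatives used DESeq2 1.42.0, other scalings, and libraries left out in turn. Scripts were tested on simulated data. The separate WT and CF tables were not used here.

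Named genes were the 12 per direction with the smallest p in which the groups did not overlap, LOC101112291 and genes the study names (REG1A had no matching entry), up to 4 per list by p, and the largest differences within a genotype. GCG, TTR, CD4, KIT and POSTN were added after their values were seen. All 33 lists and these rules were chosen with earlier results of these data known. Of 8432 locus identifiers, 573 received symbols from a RefSeq table (ARS-UI_Ramb_v3.0), whose coordinates were not used. Each library is of 1 animal, and p-values cover the spread between these libraries only.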

Additional observations from a re-analysis of the deposited data

How the results depend on the processing

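The count of genes called between CF and WT at 100 days was 0 with DESeq2 or upper quartile size factors, without a low-count filter, at an adjusted p of 0.05, in a test against 1.5-fold and with the 4 libraries of 100 days alone. It was 8 by the likelihood ratio test, 34 by DESeq2 and 319 at an unadjusted p of 0.01. Leaving out 1 library gave 0 to 326 genes, 326 being the value without CF replicate 1. For 100 days against the other ages the counts were 1, 14 and 188, and leaving out 1 library gave 0 to 184. The cause of these moves was not tested. Chosen after seeing the data, the newer quasi-likelihood fit and a fit without CF replicate 2 of 100 days and WT replicate 2 of 120 days gave 0 for both. A replicate block gave 0 for both, and as same-numbered libraries correlated between -0.396 and 0.454 in their deviations over 45 pairs of groups (-0.152 at 100 days), the numbers were not taken as pairing.

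Of 580 log2 fold changes of 58 genes under alternatives, 535 kept their direction and side of the threshold, 38 kept direction and passed it, and 7 changed sign, none of them called. Leaving out 1 library gave -0.32 to 0.09 for CFTR (0.03 without CF replicate 1), -1.59 to 0.47 for SCGN, -1.73 to 0.20 for ISL1, -2.09 to 0.02 for ELF5, -0.29 to 0.85 for KRT19 and -0.30 to 0.88 for FAU. CF replicate 2 was the library left out at the upper end for SCGN, ISL1 and ELF5, and WT replicate 2 at the end of changed sign for CFTR, KRT19 and FAU. With 2 libraries per group and 1 of them apart, small differences were not detectable.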

Other observations

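Within each genotype at 100 days, single genes differed widely between the 2 libraries, and these values are given without a test. CF replicate 2 exceeded CF replicate 1 most in ADIPOQ, CD7 and TUSC5, by 12.83, 9.43 and 9.23 on the log2 CPM scale. CD7, a surface protein of T cells, had no count in CF replicate 1 and 22.3 CPM in CF replicate 2, and the fat cell gene TUSC5 had 19.4 CPM in CF replicate 2 and no count in the other 3 libraries. In the other direction, PROC, the anticoagulant protein C, had 16.8 CPM in CF replicate 1 and 31.8 and 27.9 CPM in WT, and no count in CF replicate 2. SEBOX had 22.4, 16.3 and 17.3 CPM in the other 3 libraries and 0.108 CPM in CF replicate 2.

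Between the WT libraries, ASIP, which encodes the agouti signalling protein, had 122.8 CPM in WT replicate 1 and 0.215 CPM in WT replicate 2, with 185.9 and 214.7 CPM in CF. FETUB, a secreted fetuin, had 13.7 and 108.1 CPM in WT and 152.0 and 22.3 CPM in CF, so that each genotype held 1 high and 1 low library.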
